A study of Arabidopsis thaliana with 6 samples.

Results

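A set of 10 genes for sucrose cleavage and hexose uptake was followed in Arabidopsis roots: 3 sucrose synthases (*SUS1*, *SUS3* and *SUS4*), 2 neutral invertases (*CINV1* and *CINV2*), 1 cell wall invertase (*CWINV1*) and 4 sugar transport proteins (*STP1*, *STP4*, *STP7* and *STP13*). They were chosen by name and locus, with earlier results of these data known, and make up 10 of the 33557 genes listed. All 10 were above the minimum mean of 1 FPKM (fragments per kilobase of transcript, scaled to the number of mapped fragments) and so were among the 19597 genes tested. Roots of 10-day-old wild-type (WT) plants, of the Col ecotype by the study's methods, were compared with roots of plants of the same age that overexpress *CEPDL2* (*CEPDL2ox*), with 3 libraries in each group. The transgene is driven by the cauliflower mosaic virus 35S promoter, which is active in most tissues, so it is not limited to the root or to the cells that normally express the gene. How many transgenic lines the 3 *CEPDL2ox* libraries come from is not given in the sources used here. Both groups grew on vertical agar plates with 10 mM nitrate as the sole nitrogen source, with sucrose in the medium and under continuous light. CEPDL2 is a small glutaredoxin-like polypeptide of the CEPD family.

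A root is a sink organ that lives on sucrose delivered by the phloem. Sucrose synthase splits sucrose into fructose and UDP-glucose in a reversible reaction, whereas invertases hydrolyse it irreversibly to glucose and fructose, in the cytosol and organelles (neutral invertases), in the vacuole or in the cell wall (acid invertases). Hexoses released in the wall are taken up by STP proteins, which are proton symporters of the plasma membrane.

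*STP13* was the single gene of the 10 that rose in *CEPDL2ox* roots, with mean levels of 28.0 FPKM in WT and 44.0 FPKM in *CEPDL2ox*. Its relative *STP4* and the sucrose synthase *SUS4* were lower in every *CEPDL2ox* library than in any WT library, but neither passed the test across all genes. The most abundant gene of the set, *CINV1*, differed by a factor of 1.07 between the group means. The summed level of the STP family was nearly equal in both groups, at 160.6 ± 22.0 FPKM in WT and 163.1 ± 9.60 FPKM in *CEPDL2ox* (mean ± SD, n = 3). The shares of *STP13*, *STP4* and *STP1* in it did not overlap between the groups. Shares without overlap were not particular to these genes, since they were also found in each family of the sucrose-cleaving enzymes. None of the 10 genes passed both thresholds used to call a gene, a Benjamini-Hochberg adjusted p under 0.05 in limma on log2(FPKM + 1), together with a log2 fold change of more than 1 in either direction. At an unadjusted p under 0.05, 3 of the 10 genes passed, *STP13* higher and *SUS4* and *STP4* lower, against 23.1% of all genes tested.

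Beside the whole table, the counts of the 10 genes were small. Both thresholds together called 1.16% of all genes higher and 0.424% lower, and none of the 10 in either direction. An adjusted p under 0.05 alone was reached by 3.71% of genes with a higher level, among them *STP13*, and by 2.00% with a lower level, none of them from the set. The groups did not overlap, with *CEPDL2ox* higher, for 13.8% of all genes and for 1 of the 10, and with *CEPDL2ox* lower for 16.1% of all genes and for 2 of the 10, shares near the background at this number of genes. The log2 fold changes of the 10 had a median of -0.03, equal to that of all genes at this precision, with 5 above 0 and 5 below.

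The read totals estimated from low FPKM values were between 5100000 and 6300000 per library. The overexpressed gene, *CEPDL2*, was at 3.27, 5.78 and 9.45 FPKM in the WT libraries and at 7948, 8838 and 8337 FPKM in the *CEPDL2ox* libraries. All 6 root markers were above 0 in every library. For replicates 1, 2 and 3, their summed level was 2350, 3432 and 2503 FPKM in WT. In *CEPDL2ox* it was 2113, 2104 and 1863 FPKM, without overlap. Most of the sum came from *PYK10*, with means of 2548 FPKM in WT and 1789 FPKM in *CEPDL2ox*. Markers of green tissue summed to 3329 FPKM in WT replicate 1, where all 10 of them had their highest value, and to between 133.8 and 363.8 FPKM in the other 5 libraries. The part of that library in the results was not tested beyond leaving it out. Without WT replicate 1 the log2 fold change of *STP13* was 0.57 (limma, adjusted p = 0.033), and none of the other 9 genes passed. In bulk roots, a change in the number of cells that express a gene and a change in RNA per cell cannot be told apart. The 3 libraries of a group are described by the study as independent biological replicates, but nothing in the labels says which plants they came from.

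**Figure D1:**
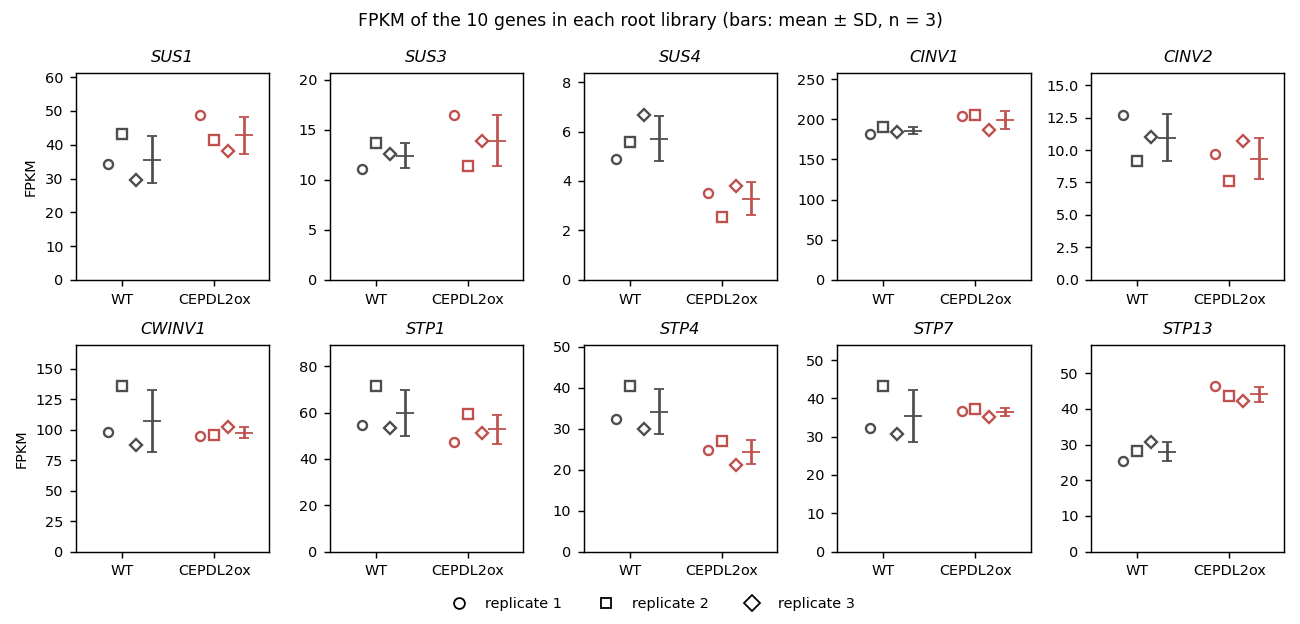
FPKM (y axes, each from 0) of the 10 genes in WT and *CEPDL2ox* roots, with 1 symbol per library (circle, square and diamond for replicates 1, 2 and 3) and the mean ± SD of each group beside them. The groups do not overlap for *SUS4*, *STP4* and *STP13*, and the square of WT replicate 2 is the highest WT value in 7 panels.

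In WT roots the levels per transcript length covered a wide range. *CINV1* was highest, at 186 ± 4.42 FPKM, followed by *CWINV1* at 107 ± 25.2 FPKM and *STP1* at 60.0 ± 9.94 FPKM, and the libraries of each of these genes lay apart from those of the next. *SUS1*, *STP7*, *STP4* and *STP13* followed, and each overlapped with its neighbour in that order over the 3 WT libraries. *SUS3* and *CINV2* also overlapped with each other, below *STP13*, and *SUS4* was lowest at 5.71 ± 0.913 FPKM. In *CEPDL2ox* roots the same 2 genes came first and *SUS4* was again lowest. There *STP1* and *SUS1* overlapped, and *STP4*, which overlapped with *STP7* and *STP13* in WT, lay below both of them.

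Among the sucrose synthases, *SUS1* (AT5G20830) was the main transcript. Its levels were 34.3, 43.1 and 29.5 FPKM in WT and 48.9, 41.3 and 38.1 FPKM in *CEPDL2ox*, for replicates 1, 2 and 3 in that order, as for all genes that follow. The WT replicate 2 value lay among those of *CEPDL2ox*, so the groups overlapped. The log2 fold change was 0.27, with a 95% interval from -0.08 to 0.62 (limma, adjusted p = 0.33). *SUS3* (AT4G02280), which is known from seeds and water deficit, was at 11.1, 13.7 and 12.6 FPKM in WT and at 16.5, 11.4 and 13.9 FPKM in *CEPDL2ox*, with overlap and a log2 fold change of 0.14 (limma, 95% interval -0.20 to 0.49, adjusted p = 0.61).

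*SUS4* (AT3G43190), the close relative of *SUS1*, was at 4.87, 5.59 and 6.69 FPKM in WT and at 3.53, 2.55 and 3.79 FPKM in *CEPDL2ox*. The lowest WT library lay above the highest *CEPDL2ox* library. The log2 fold change was -0.65 with an SE of 0.18 and a 95% interval from -1.07 to -0.23, and it did not pass the test over all genes (limma, adjusted p = 0.080). The values rest on an estimated 37 to 103 reads per library, the fewest among the 10 genes. Within each library, *SUS1* was 7.04, 7.72 and 4.41 times as high as *SUS4* in WT and 13.9, 16.2 and 10.1 times as high in *CEPDL2ox*, a ratio that was chosen after the levels were seen. No ratio in *CEPDL2ox* was as low as any in WT, and the exact two-sided permutation p was 0.10, which is the lowest value that 3 libraries against 3 can give. *SUS4* made up 8.63% ± 2.03 of the summed FPKM of the 6 sucrose synthase genes in WT and 4.45% ± 0.874 in *CEPDL2ox*.

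*SUS1* and *SUS4* encode proteins of equal length, 808 residues, and could share reads if their transcripts were alike over the length of a read. Of the 75-base windows along the longest *SUS1* transcript, 6 (0.176%) occurred in *SUS4* with at most 2 mismatches, and no other pair of family members including 1 of the 10 genes shared such a window. The stretch that these 6 windows cover, 80 coding bases joined across an intron, is shown for both genes, because it is where a read could match either of them with at most 2 mismatches. It lies at chr5:7052668-7052837 for *SUS1* and at chr3:15181292-15181454 for *SUS4*, both on the minus strand of TAIR10.1, and capitals mark the 2 bases that differ.
SUS1: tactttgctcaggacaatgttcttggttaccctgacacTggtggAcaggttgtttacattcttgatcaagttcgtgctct
SUS4: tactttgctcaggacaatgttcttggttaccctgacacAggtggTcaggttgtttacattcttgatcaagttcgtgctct
The longest run without a mismatch in it was 38 bases, shorter than a read.

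Of the wider sucrose synthase family, all 6 genes were tested, and none passed the adjusted p of 0.05 in limma (1 of them, *SUS4*, had an unadjusted p under 0.05). The family median of the log2 fold changes was 0.08, beside -0.03 over all genes tested. *SUS2*, at 1.32 to 1.90 FPKM in WT and 0.71 to 1.18 FPKM in *CEPDL2ox*, was low in both groups. The summed level of the family was 67.2 ± 8.96 FPKM in WT and 73.9 ± 7.28 FPKM in *CEPDL2ox*, with overlap.

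Neutral invertase transcripts were dominated by *CINV1* (AT1G35580), a cytosolic enzyme that, together with *CINV2*, is needed for normal root growth. *CINV1* was at 182, 191 and 185 FPKM in WT and at 205, 206 and 187 FPKM in *CEPDL2ox*. *CEPDL2ox* replicate 3 lay within the WT range. With an estimated 2232 to 2787 reads per library, this gene had the narrowest interval of the set, a log2 fold change of 0.10 with 95% limits of -0.06 and 0.26 (limma, adjusted p = 0.44). *CINV2* (AT4G09510) was at 12.7, 9.12 and 11.0 FPKM in WT and at 9.68, 7.63 and 10.7 FPKM in *CEPDL2ox*, with overlap and a log2 fold change of -0.21 (limma, 95% interval -0.58 to 0.16, adjusted p = 0.48).

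The shares of the pair in their family also overlapped between the groups. *CINV1* made up 62.7% ± 1.59 of the summed FPKM of the 9 neutral invertase genes in WT and 63.6% ± 2.36 in *CEPDL2ox*, and *CINV2* 3.70% ± 0.604 and 2.99% ± 0.540. Of the 7 tested genes of this family none passed the adjusted p of 0.05 in limma, and 2 had an unadjusted p under 0.05. The smallest adjusted p belonged to *A/N-InvD*, at 0.062, with 3.75, 3.24 and 4.07 FPKM in WT and 6.18, 5.44 and 6.06 FPKM in *CEPDL2ox*. The summed level of the family was 296.4 ± 0.553 FPKM in WT and 313.2 ± 10.2 FPKM in *CEPDL2ox*, without overlap but a factor of 1.06 apart (exact two-sided permutation p = 0.10).

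*CWINV1* (AT3G13790), the acid invertase that cleaves sucrose in the cell wall, was at 98.4, 135.6 and 87.7 FPKM in WT and at 95.1, 95.2 and 102.5 FPKM in *CEPDL2ox*. All 3 *CEPDL2ox* libraries lay within the WT range, which WT replicate 2 extends upwards. The log2 fold change was -0.11 (limma, 95% interval -0.46 to 0.24, adjusted p = 0.70). Its direction rested on 1 library, since without WT replicate 2 the value was 0.07.

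Another gene of the acid invertase family passed the test. *CWINV5*, a cell wall invertase gene on the same chromosome, fell, from 33.8, 41.3 and 36.3 FPKM in WT to 26.3, 23.0 and 27.4 FPKM in *CEPDL2ox* (log2 fold change -0.52, limma, adjusted p = 0.034). It was the single gene of the 6 tested in this family to pass, and its fold change was under the calling threshold. The vacuolar invertase gene *VI1* was the most abundant of the family, at 183 ± 26.9 FPKM in WT and 220 ± 15.7 FPKM in *CEPDL2ox*, with overlap and a log2 fold change of 0.27 (limma, adjusted p = 0.20). As a share of the family's summed FPKM, *CWINV1* was 26.8% ± 2.40 in WT and 24.2% ± 1.49 in *CEPDL2ox*, with overlap, whereas *VI1* was 46.2% ± 1.66 and 54.5% ± 1.03 and *CWINV5* 9.40% ± 0.606 and 6.32% ± 0.328, both without overlap. The smallest exact two-sided permutation p, 0.10, applies to these shares as well. *C/VIF2*, an invertase inhibitor, was at 17.7, 14.3 and 10.9 FPKM in WT and at 4.65, 7.38 and 8.74 FPKM in *CEPDL2ox* and did not pass (limma, adjusted p = 0.058).

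Among the hexose transporters, *STP13* (AT5G26340), a high-affinity symporter known to be induced by stress and pathogens, was at 25.4, 28.1 and 30.6 FPKM in WT and at 46.3, 43.5 and 42.3 FPKM in *CEPDL2ox*. All *CEPDL2ox* libraries lay above all WT libraries, and the gap between the groups was wider than the range within either one. The log2 fold change was 0.64 with an SE of 0.09 and a 95% interval from 0.42 to 0.85 (limma, adjusted p = 0.0092), with an estimated 270 to 459 reads per library. Without *CEPDL2ox* replicate 1 the log2 fold change was 0.60 and the adjusted p 0.056 (limma). Leaving out any other single library also raised the adjusted p, to between 0.018 and 0.044 (limma). A log2 fold change of this size is under the threshold of 1.

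*STP4* (AT3G19930), a hexose symporter known from root tips and other sinks, showed the opposite order. Its levels were 32.3, 40.3 and 29.9 FPKM in WT and 24.7, 27.0 and 21.2 FPKM in *CEPDL2ox*, without overlap. The log2 fold change was -0.47 with an SE of 0.14 and a 95% interval from -0.78 to -0.16, which did not pass the test over all genes (limma, adjusted p = 0.090). Within each library, *STP13* was 0.788, 0.696 and 1.02 times as high as *STP4* in WT and 1.88, 1.61 and 2.00 times as high in *CEPDL2ox*. This ratio, chosen after the levels were seen, is independent of the scaling of a library, and it was higher in all *CEPDL2ox* libraries than in any WT library (exact two-sided permutation p = 0.10).

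*STP1* (AT1G11260), the main high-affinity glucose symporter of seedlings, was at 54.9, 71.4 and 53.6 FPKM in WT and at 47.6, 59.5 and 51.2 FPKM in *CEPDL2ox*. The groups overlapped, and the log2 fold change was -0.18 (limma, 95% interval -0.48 to 0.13, adjusted p = 0.47). *STP7* (AT4G02050), which carries arabinose and xylose rather than glucose, was at 32.4, 43.2 and 30.6 FPKM in WT and at 36.7, 37.2 and 35.2 FPKM in *CEPDL2ox*. Its *CEPDL2ox* libraries all lay inside the WT range. The log2 fold change was 0.05 (limma, 95% interval -0.25 to 0.35, adjusted p = 0.84), and its sign changed when WT replicate 1 (-0.0012) or WT replicate 3 (-0.04) was left out.

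The levels of *STP1* and *STP7* carry a further limit, because the library kit does not mark strand. In TAIR10.1, 312 exonic bases of *STP1* (12.6%) overlap AT1G11270 on the opposite strand, although the loci of the deposited files do not overlap there. *STP7* overlaps *MCM7* by 21 exonic bases and AT4G02040 by 64, both on the opposite strand, and the files give *STP7* and these neighbours 1 joint locus on chromosome 4 from 897547 to 905591 (TAIR10). None of the other 8 genes overlaps another gene's exons in TAIR10.1.

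**Figure D2:**
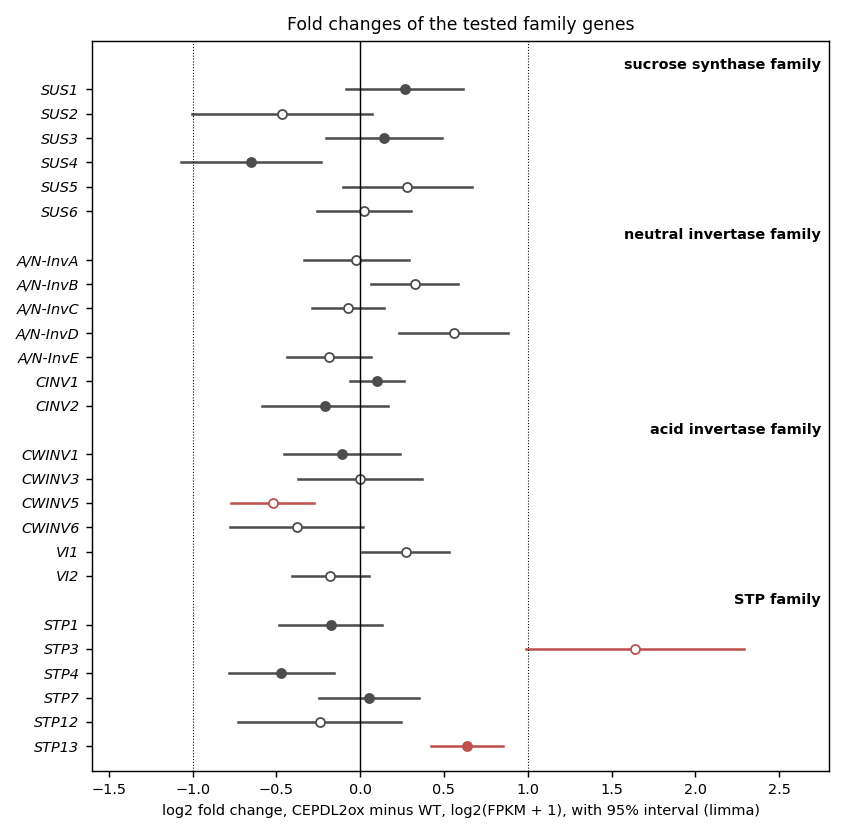
Log2 fold change (x axis, *CEPDL2ox* minus WT on the log2(FPKM + 1) scale) with its 95% interval from limma for the 25 tested genes of the sucrose synthase, neutral invertase, acid invertase and STP families. Filled points are the 10 genes followed here, red marks an adjusted p under 0.05 (*CWINV5*, *STP3* and *STP13*), and dotted lines stand at the calling thresholds of -1 and 1, which *STP3* alone passes with its point, a gene that reached the minimum mean only through its *CEPDL2ox* libraries.

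The STP family as a whole has 14 genes, of which 6 were tested and 3 were listed at 0 in all libraries. One more gene than *STP13* had an adjusted p under 0.05. *STP3*, known as a low-affinity monosaccharide transporter, was at 0.637, 0.10 and 0.478 FPKM in WT and at 2.51, 4.8 and 2.96 FPKM in *CEPDL2ox* (log2 fold change 1.64, limma, adjusted p = 0.018). The WT values rest on an estimated 1 to 7 reads per library. With a WT mean of 0.405 FPKM, *STP3* reached the minimum mean of 1 FPKM only through its *CEPDL2ox* libraries, so a gene admitted in this way had to differ and its result is a description. The median log2 fold change of the 6 tested genes, *STP3* included, was -0.06.

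In every library *STP1*, *STP4*, *STP7* and *STP13* held nearly all of the family's summed FPKM. The share of *STP13* was 17.1%, 15.1% and 20.8% in the WT libraries and 28.9%, 25.0% and 27.2% in the *CEPDL2ox* libraries. The share of *STP4* was 21.2% ± 0.798 in WT and 14.9% ± 1.06 in *CEPDL2ox*, and that of *STP1* 37.3% ± 1.04 and 32.3% ± 2.34. *STP7* differed by less than the spread between libraries, with 21.9% ± 1.2 and 22.3% ± 0.801. For *STP13*, *STP4* and *STP1* the shares of WT and *CEPDL2ox* lay apart (exact two-sided permutation p = 0.10 each). So did the share of *STP3* and those of several genes in each of the other families. Shares of a family sum to a whole, so a higher share of one gene lowers the others, and the level of *STP1* itself overlapped. In WT replicates 1 and 2, *STP13* was the least abundant of these 4 transporters, and in all *CEPDL2ox* libraries it ranked above *STP4* and *STP7* and below *STP1*.

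**Figure D3:**
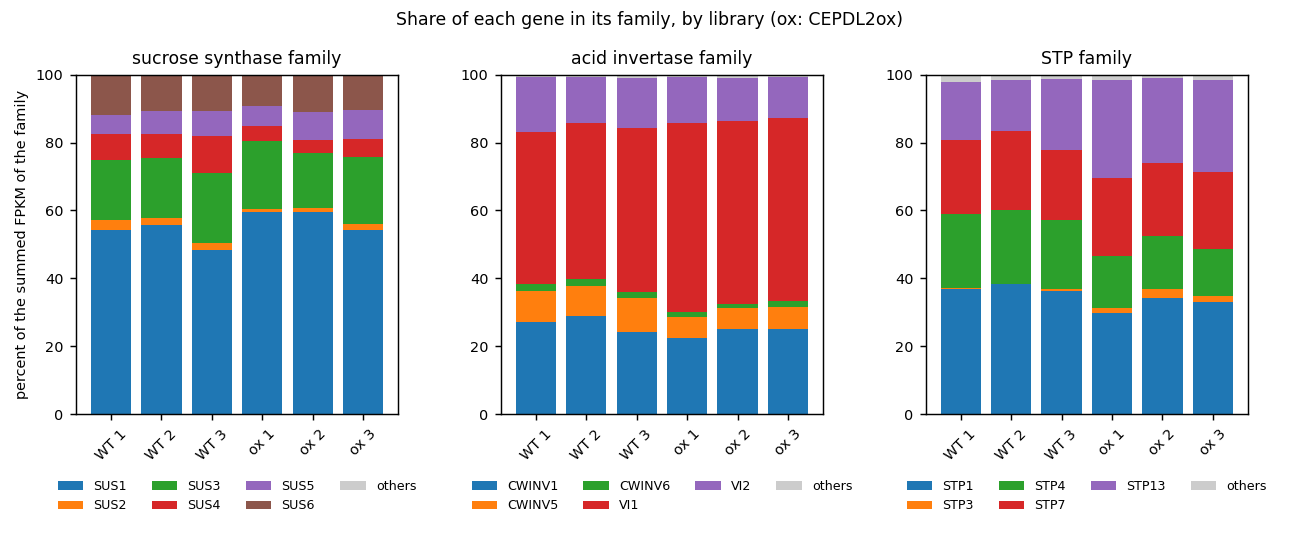
Percent of the family's summed FPKM (y axis) held by each gene in each library (x axis, ox for *CEPDL2ox*), for sucrose synthases, acid invertases and STP genes; genes under 2% in all libraries are pooled as others. *STP13* takes 15.1% to 20.8% of the STP sum in WT and 25.0% to 28.9% in *CEPDL2ox*, and *VI1* is the largest part of the acid invertases in both groups.

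Several of the genes shared a pattern among the WT libraries that the groups do not account for. WT replicate 2 had the highest WT level for 7 of the 10 genes, and for 35.2% of all genes tested. Relative to the mean of the other 2 WT libraries, it was 1.46 times as high for *CWINV1*, 1.37 for *STP7*, 1.35 for *SUS1*, 1.32 for *STP1* and 1.3 for *STP4*. It was not higher for *STP13* (1.00) or *SUS4* (0.966), and for *CINV2* it was lower (0.768). On the log2 scale the median difference of WT replicate 2 from the rest of its group was 0.28 over the 10 genes and -0.002 over all genes tested. The cause was not tested. Without this library the log2 fold change was 0.64 for *STP13*, -0.66 for *SUS4* and -0.35 for *STP4*, and *STP13* passed as before (limma, adjusted p = 0.037).

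**Figure D4:**
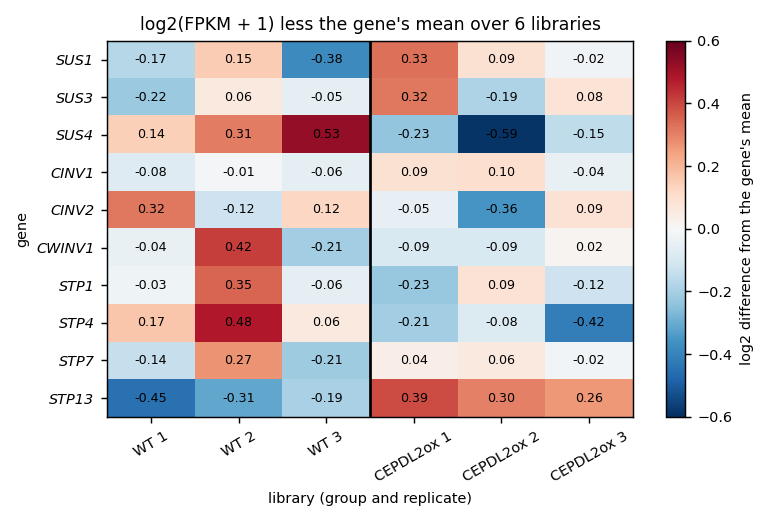
Each cell is log2(FPKM + 1) of a gene (rows) in a library (columns) less the mean of that gene over the 6 libraries, and colours run from -0.6 (blue) to 0.6 (red). *STP13* is below its mean in all WT libraries and above it in all *CEPDL2ox* libraries, *SUS4* and *STP4* are the reverse, and WT replicate 2 reaches 0.42 for *CWINV1* and 0.48 for *STP4*.

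The enzymes around the 10 genes were examined as lists: the rest of the 4 families, invertase inhibitors, hexose kinases, UDP-glucose pyrophosphorylases, sucrose-phosphate synthases and tonoplast sugar carriers. Outside the 10 these hold 52 genes, of which 35 were tested and 7 were listed at 0 in all libraries. In limma 2 passed an adjusted p of 0.05 with a higher level, *STP3*, which was tested only through its *CEPDL2ox* values, and the fructokinase *FRK7*, and 1 with a lower level, *CWINV5*. *FRK7*, which phosphorylates fructose, was at 42.7, 39.6 and 37.8 FPKM in WT and at 54.3, 53.3 and 60.8 FPKM in *CEPDL2ox* (log2 fold change 0.48, limma, adjusted p = 0.023). The median log2 fold change of the 35 genes was -0.07.

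Genes that respond to low oxygen, a condition under which *SUS1* and *SUS4* are known to be induced, were examined as a further list. Of 8 such genes, *HB1*, a non-symbiotic hemoglobin, rose, from 29.4 ± 1.02 FPKM to 40.7 ± 4.18 FPKM (log2 fold change 0.45, limma, adjusted p = 0.036), and none passed with a lower level. *ADH1* and *PDC1*, the fermentation enzymes of the list, were lower in all *CEPDL2ox* libraries than in any WT library. Such an order held for 16.1% of all genes tested. The ratios between the group means were 0.667 and 0.741, and neither gene passed (limma, adjusted p = 0.099 and 0.089). The median log2 fold change of the 8 genes was 0.01, with 5 above 0 and 3 below. Of 7 genes that respond to sugar starvation, *DIN6*, which encodes an asparagine synthetase and is also controlled by nitrogen supply, was at 17.7, 26.7 and 24.7 FPKM in WT and at 78.3, 80.0 and 86.0 FPKM in *CEPDL2ox* (log2 fold change 1.80, limma, adjusted p = 0.00085). The other 6 genes of that list did not pass, and the list median was 0.13. Of the 6 root markers, *EXP7*, a root hair expansin, rose by a log2 fold change of 0.44 (limma, adjusted p = 0.027) and the others did not pass. Among those, *PYK10* was lower in all *CEPDL2ox* libraries than in any WT library (log2 fold change -0.49, limma, adjusted p = 0.11). No green tissue marker passed (10 tested, 2 with an unadjusted p under 0.05 in limma).

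Over the 6 libraries, the listed genes whose log2(FPKM + 1) was most like that of *STP13* were *DIN6* (Pearson r = 0.98), the UDP-glucose pyrophosphorylase gene *UGP2* (0.97) and *A/N-InvD* (0.95), of 66 genes compared. All points come from the same 2 groups of 3, so any gene that differs between the groups gives a high value, and these correlations are a description.

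The bases upstream of the 3 genes whose groups did not overlap are shown. *SUS4* and *STP4* were each lower in *CEPDL2ox*, without passing the test, and *STP13* was higher. Each is the 250 bases before the gene start in TAIR10.1, read 5′ to 3′ in the direction of the gene, at chr5:9247541-9247790 (minus strand) for *STP13*, chr3:6934318-6934567 (plus strand) for *STP4* and chr3:15184106-15184355 (minus strand) for *SUS4*. Capitals mark TTGAC, the core letters of the W box, or TGACG, the letters known for TGA factors, known partners of plant-specific glutaredoxins, on either strand; the 2 motifs can overlap each other.
STP13: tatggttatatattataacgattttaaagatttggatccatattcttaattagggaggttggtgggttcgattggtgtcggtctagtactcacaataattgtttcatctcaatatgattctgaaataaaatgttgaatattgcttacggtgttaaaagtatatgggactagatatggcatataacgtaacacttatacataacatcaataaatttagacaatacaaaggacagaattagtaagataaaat
STP4: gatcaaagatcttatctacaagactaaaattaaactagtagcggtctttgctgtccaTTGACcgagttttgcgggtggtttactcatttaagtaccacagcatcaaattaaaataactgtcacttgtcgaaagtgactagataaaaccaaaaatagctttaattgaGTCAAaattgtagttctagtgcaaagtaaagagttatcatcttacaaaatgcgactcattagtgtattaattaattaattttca
SUS4: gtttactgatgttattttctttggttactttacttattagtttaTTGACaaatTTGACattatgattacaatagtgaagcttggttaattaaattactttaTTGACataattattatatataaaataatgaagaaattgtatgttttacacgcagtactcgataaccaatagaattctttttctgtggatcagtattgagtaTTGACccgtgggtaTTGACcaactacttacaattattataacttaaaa
TTGAC occurred at 5 places before *SUS4*, at 2 before *STP4* and nowhere before *STP13*. At least 5 such places were found in 0.113% of 27443 windows of this length before protein-coding genes, and at least 2 in 14.1%. Of the 10 genes, 5 had TTGAC in this window, beside 44.9% of all windows, and 1, *STP1*, had TGACG, beside 18.6%. TTGAC was also absent before *SUS3*, *CINV2*, *STP1* and *STP7*, whose groups overlapped. *SUS4* was shown because of its values, so the rarity of 5 places is a description. These are matches of letters, not measured sites.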

How the data were processed

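RNA was taken from roots, and libraries were made with an unstranded kit and sequenced by the authors as single-end 75-base reads in 3 WT and 3 *CEPDL2ox* samples, which were grouped by their labels. The authors mapped reads to TAIR10 in BaseSpace and deposited FPKM for each gene, 1 table per library, without pooling. The quantifier and any scaling between libraries are not given in the sources used here. FPKM values carry no counts, so depth was estimated from genes of 1 exon above 0 in a single library, taking transcript length less 200 bases.

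Values were compared as log2(FPKM + 1) with limma 3.58.1 in R 4.3.3 (intensity trend, all 6 libraries, no covariate) for all genes whose mean over the libraries reached 1 FPKM. A fold change on this scale understates that of low genes. P-values were adjusted by Benjamini-Hochberg over all 19597 genes. The fit was also run on simulated data with planted changes larger than any found among the 10 genes, and no result here rests on it. Shares and ratios were compared by exact permutation over libraries, two-sided. Python 3.11.15, pandas 2.3.3 and scipy 1.17.1 were used. Named genes are the 10, up to 3 genes of each list with an adjusted p under 0.05, and those most like a gene that passed. *A/N-InvD*, *C/VIF2*, *VI1*, *VI2*, *CWINV6*, *SUS2*, *ADH1*, *PDC1* and *PYK10* were named after their values were seen. The 10 genes and the lists were chosen with earlier results of these data known. Sequences are from RefSeq (TAIR10.1), whose identifiers matched 32813 of the 33557 in the tables. Alternatives were another pseudocount, other filters and scalings, no trend, the replicate number as a block and leaving out each library.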

Additional observations from a re-analysis of the deposited data

How the results depend on the processing

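Under 14 alternative settings none of the 10 genes passed both thresholds. *STP13* stayed higher in all of them (log2 fold change 0.55 to 0.70) with an adjusted p of 0.0070 to 0.056 in limma, under 0.05 in 13. Leaving out 1 library at a time, between 0 and 1 of the genes had an adjusted p under 0.05, and *STP13* ranged from 0.57 to 0.70. With the replicate block 2 genes had one, as *STP4* (-0.47) reached an adjusted p of 0.0498 in limma. In the other 13 settings *STP4* did not pass. Over all 14 its log2 fold change lay between -0.56 and -0.35, with an adjusted p of up to 0.20 in limma. Same-numbered libraries did not deviate together across all genes tested (r = -0.032, 0.019 and 0.001). This cannot decide whether the numbers pair the samples, since a pairing that touches few genes would not show. For *STP4* the replicates had the same order in both groups, and the block lowered its SE from 0.136 to 0.0943. *STP7* turned to -0.0353 when all libraries were scaled to the same summed FPKM, a scaling that moved the median of all genes from -0.03 to -0.11. Leaving out 1 library at a time gave -0.0395 to 0.201 for *STP7*, -0.242 to 0.0701 for *CWINV1*, 0.142 to 0.409 for *SUS1*, 0.0187 to 0.271 for *SUS3*, -0.325 to -0.0852 for *CINV2*, -0.264 to -0.0455 for *STP1* and 0.073 to 0.144 for *CINV1*, none with an adjusted p under 0.05 in limma. The cause was not tested. The minimum of 5 FPKM removed *SUS4* from the test, and in the other 13 settings it lay between -0.79 and -0.52 with an adjusted p of 0.062 to 0.19 in limma.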
